A study of Mus musculus with 6 samples.

Results

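The claudins described here are the 10 family members *Cldn1*, *Cldn2*, *Cldn3*, *Cldn4*, *Cldn5*, *Cldn6*, *Cldn7*, *Cldn8*, *Cldn11* and *Cldn12*. The set is taken to stand for the proximal tubule, the collecting duct, the endothelium and the parietal epithelium of the kidney. It leaves out the claudins listed here for the thick ascending limb. Whether cells of the thick ascending limb also make any of the 10 was not measured. The 10 claudins were picked by gene symbol from a table of kidney RNA. They made up 10 of its 23276 gene symbols and 15 of its 54721 transcript entries. All 10 were found.

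RNA of 6 whole mouse kidneys at postnatal day 22 was sequenced, 3 from each of 2 genotypes. The *Pkd1* F/RC SKO kidneys carried KspCre with *Pkd1* F/RC. The *Pkd1* F/RC DKO kidneys carried KspCre with *Pkd1* F/RC and miR-17-92 F/F. Both groups thus shared the Cre transgene, a floxed *Pkd1* allele (F) and the RC allele of *Pkd1*, a hypomorphic germline mutation present in every cell, and both are models of autosomal dominant polycystic kidney disease. KspCre is driven by the promoter of kidney-specific cadherin, which is active in the epithelium of renal tubules, so that recombination of the floxed alleles is not expected in endothelial cells. The study's text describes the 3 samples of each group as biological samples.

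The abundance values used are the authors' mean log2 CPM (read counts scaled to the size of the library) over both genotypes together. The kidneys have no columns of their own. The spread between them and the depth of each library are therefore unknown, no claudin was compared between SKO and DKO, and all values are descriptions with no test. In RNA of a whole kidney, fewer cells of a type and less RNA per cell cannot be told apart.

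Claudins are membrane proteins that cross the membrane of epithelial and endothelial cells several times and join those of the neighbouring cell at the tight junction. Some close the space between cells to ions, and others form pores that let particular ions or water through. Each segment of the nephron has its own combination of claudins, and this combination sets what passes between the cells there. The best known in the thick ascending limb are *Cldn16* and *Cldn19*, which act together in the reabsorption of magnesium and calcium.

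The floxed allele of the DKO kidneys covers the miR-17-92 cluster, a group of microRNAs processed from 1 transcript of mouse chromosome 14. The mature microRNAs are shown first because the question of the study concerns genes they may pair with. The sequences are those of RefSeq (GRCm38.p6), written 5′ to 3′, and the capitals mark the seed, bases 2 to 8, which pairs with the messenger RNA.
mmu-miR-17-5p: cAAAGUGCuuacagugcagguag
mmu-miR-20a-5p: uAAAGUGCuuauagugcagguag
mmu-miR-18a-5p: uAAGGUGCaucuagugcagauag
mmu-miR-19a-3p: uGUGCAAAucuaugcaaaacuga
mmu-miR-19b-3p: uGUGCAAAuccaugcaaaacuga
mmu-miR-92a-3p: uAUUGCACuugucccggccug

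The first pair shares the miR-17 seed and the miR-19 pair shares another, so that the 6 microRNAs hold 4 seeds. A DNA copy of a 3′-UTR that can pair with these seeds reads GCACTTT for miR-17, GCACCTT for miR-18, TTTGCAC for miR-19 and GTGCAAT for miR-92. The sites that these letters mark in the claudins are given after their levels.

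*Cldn2* was the most abundant of the 10 claudins. It encodes the pore of the proximal tubule that lets sodium and water pass between cells. Its highest entry had an authors' mean of 7.74 on the log2 CPM scale, which is 214 CPM and higher than 99.3% of all gene symbols. *Cldn2* lies on the plus strand of chromosome X (GRCm38, 139800828 to 139811386) and has 2 exons. Levels of different genes were compared per kilobase of transcript, since a longer transcript gives more reads. On that scale *Cldn2* had 70.4 CPM per kilobase, 46.2% of the sum over the 10 claudins and 2.38 times the level of the next.

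The claudins of the collecting duct covered a wide range. *Cldn8*, which is found in the junctions of the distal nephron and the collecting duct, had an authors' mean of 69.6 CPM, or 29.6 CPM per kilobase. *Cldn4*, a partner of *Cldn8* in the chloride passage of the collecting duct, had 24.7 CPM, or 13.6 CPM per kilobase. *Cldn7*, which is found along the sides of collecting duct cells as well as in their junctions, had 11.5 CPM, or 8.64 CPM per kilobase. *Cldn3*, a claudin that tightens the junction in distal segments, was lower, with 3.94 CPM or 3.13 CPM per kilobase. Among these 4 genes *Cldn8* was thus highest and *Cldn3* lowest on both scales.

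These 4 genes differ in their build. *Cldn8* (chromosome 16, 88560828 to 88563183, minus strand), *Cldn4* (chromosome 5, 134945119 to 134946934, minus strand) and *Cldn3* (chromosome 5, 134986214 to 134987472, plus strand) each have 1 exon, and *Cldn7* (chromosome 11, 69965396 to 69967885, plus strand) has 4. *Cldn3* and *Cldn4* are neighbours, 39.3 kb apart. A short stretch of *Cldn3* is shared with another gene. In all, 40 bases of *Cldn3*, 3.18% of its transcript, overlap *Wbscr25* on the opposite strand, and the sources used here do not say whether reads were counted by strand.

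*Cldn12*, which has been linked to the passage of calcium across the intestine and the proximal tubule, followed *Cldn8* per kilobase. Its authors' mean was 48.2 CPM, or 13.9 CPM per kilobase. That is 1.02 times the level of *Cldn4*, and the order of these 2 genes changed when the longest annotated transcript set the length. *Cldn12* lies on chromosome 5 (5505223 to 5514730, minus strand) and has 4 exons.

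*Cldn1* and *Cldn5* stand for the parietal epithelium and the endothelium. *Cldn1*, which is found in the cells that line Bowman's capsule, had 20.9 CPM, or 6.44 CPM per kilobase. *Cldn5*, the main claudin of blood vessels, had 4.72 CPM, or 3.33 CPM per kilobase. *Cldn1* (chromosome 16, 26356642 to 26371841, minus strand) has 4 exons, and *Cldn5* (chromosome 16, 18776847 to 18778262, plus strand) has 1.

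*Cldn11* and *Cldn6* closed the order. *Cldn11* is known from myelin and from the junctions between Sertoli cells of the testis, and it had 3.47 CPM, or 1.86 CPM per kilobase. *Cldn6*, a claudin of embryonic and newborn epithelia, had 2.62 CPM, or 1.61 CPM per kilobase. The level of *Cldn2* was 43.6 times that of *Cldn6* per kilobase. *Cldn11* lies on chromosome 3 (31149920 to 31164324, plus strand, 3 exons) and *Cldn6* on chromosome 17 (23679249 to 23682446, plus strand, 3 exons). The neighbour of *Cldn6*, 137 bases away, is another claudin, *Cldn9*, which had 0.109 CPM per kilobase.

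*Cldn2* and *Cldn8* together made up 65.6% of the sum per kilobase over the 10 claudins, and with *Cldn12* and *Cldn4* added this was 83.6%. The remaining 6 genes ranged from 1.61 to 8.64 CPM per kilobase. Neighbours in the order were often close. The ratio of *Cldn5* to *Cldn3* was 1.07 and that of *Cldn11* to *Cldn6* was 1.15. Whether any pair of neighbours differed by more than the spread between kidneys cannot be given, since the spread is unknown.

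All 10 claudins were above 1 CPM, as were 55.9% of all 23276 gene symbols. The lowest, *Cldn6*, stood above 50.8% of all symbols in CPM, and the median of the 10 was at the 75.7th percentile. Per kilobase their median was 7.54 CPM, against 0.922 over the 22797 symbols with a known length and 4.08 over those with at least 1 CPM.

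**Figure D1:**
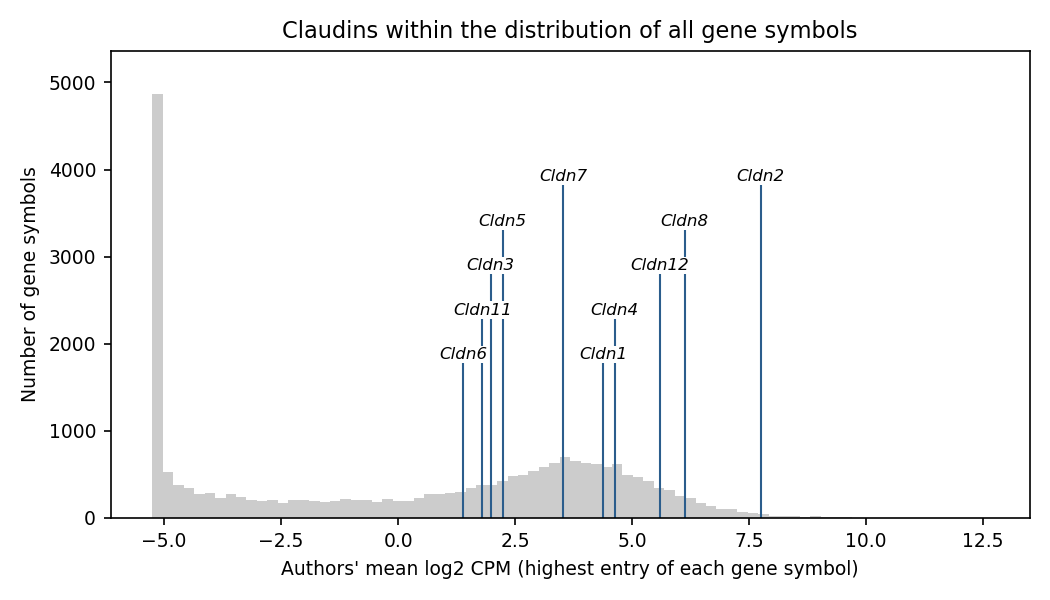
Number of gene symbols (vertical axis) by the authors' mean log2 CPM of their highest entry (horizontal axis), with a line for each of the 10 claudins, whose height has no meaning. The claudins spread from 1.39 for *Cldn6* to 7.74 for *Cldn2*, all to the right of the tall bar of symbols at the lowest value, near -5.25.

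Only 3 of the 10 claudins had more than 1 entry in the table. The 4 entries of *Cldn12*, which are RefSeq messenger RNAs with the same coding sequence, lay between 48.1 and 48.2 CPM. *Cldn2* had 1 RefSeq entry at 214 CPM and 1 entry assembled from the reads at 207 CPM, a difference of 0.05 on the log2 scale. *Cldn7* had entries at 11.5 and 8.78 CPM, a difference of 0.39 on the log2 scale. The one lower in CPM belongs to a shorter transcript of 913 bases, against 1335 bases for the other. Per kilobase of its own transcript, the shorter entry is the higher. Both entries encode 211 residues and differ in their untranslated regions. The entries of 1 gene overlap, so that a read can be counted in several of them and their sum is no measure of the gene.

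**Figure D2:**
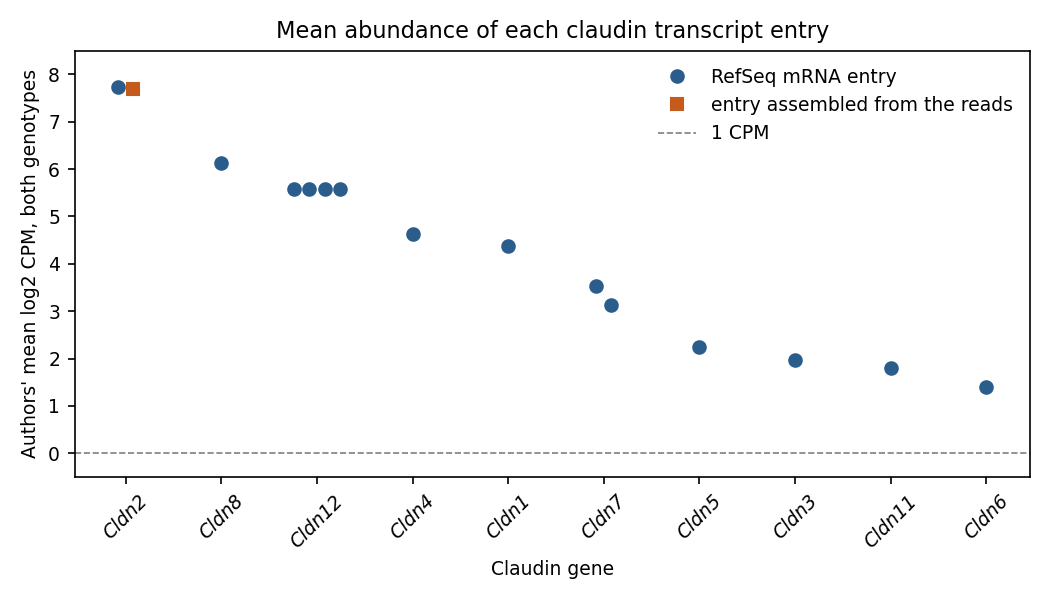
The authors' mean log2 CPM over both genotypes (vertical axis) of all 15 entries of the 10 claudins (horizontal axis, ordered by the highest entry), with circles for RefSeq messenger RNAs, a square for the entry assembled from the reads and a dashed line at 1 CPM. The 4 points of *Cldn12* form a level line, and the 2 points of *Cldn7* differ by 0.39.

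The 10 claudins share no stretch as long as a read. None of the 51-base stretches of their transcripts, as long as the reads themselves, was found in an annotated transcript of another gene. The transcripts range from 1259 bases for *Cldn3* to 3477 for *Cldn12*, and the proteins from 207 residues for *Cldn11* to 244 for *Cldn12*. The proteins are thus of like size, and most of the difference in transcript length lies in the 3′-UTR, which has 168 bases in *Cldn7* and 2468 in *Cldn12*. The GC content of the transcripts ranged from 40.6% for *Cldn8* to 62.7% for *Cldn3*.

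The other claudins were measured in the same way. The set listed for the thick ascending limb held *Cldn10*, *Cldn14*, *Cldn16* and *Cldn19*. *Cldn10* was highest with 55.7 CPM per kilobase and *Cldn14* lowest with 0.0851, and the median was 9.25. Of the 15 further claudin genes that were looked for, 9 were in the table, and of these only *Cldn15*, with 5.58 CPM per kilobase, was above 1 CPM. Their median was 0.0498 CPM per kilobase and the lowest on that scale was *Cldn18* with 0.0208. In CPM their median was 0.0496 and *Cldn18* had 0.0293, near the lowest mean of all transcripts, 0.0263 CPM. The order among values so near the lowest is not a measured difference in level. An entry named *Cldn25* and one named *Cldn26* were left out because the annotation gives their transcripts to *Cldnd1* and *Tmem114*, which are other genes.

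Of the sum per kilobase over the 23 claudins in the table, the 10 genes of the set made up 65.5%. The 4 genes listed for the thick ascending limb made up 31.9% and the other 9 genes 2.64%. *Cldn10* gave 55.7 of the 74.3 CPM per kilobase of those 4 genes. The transcripts of *Cldn10* were not compared, and the cells its RNA came from were not measured. These shares are therefore shares of gene lists and not of segments of the nephron. *Cldn2* was highest of the 23, followed by *Cldn10* and then by *Cldn8*.

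**Figure D3:**
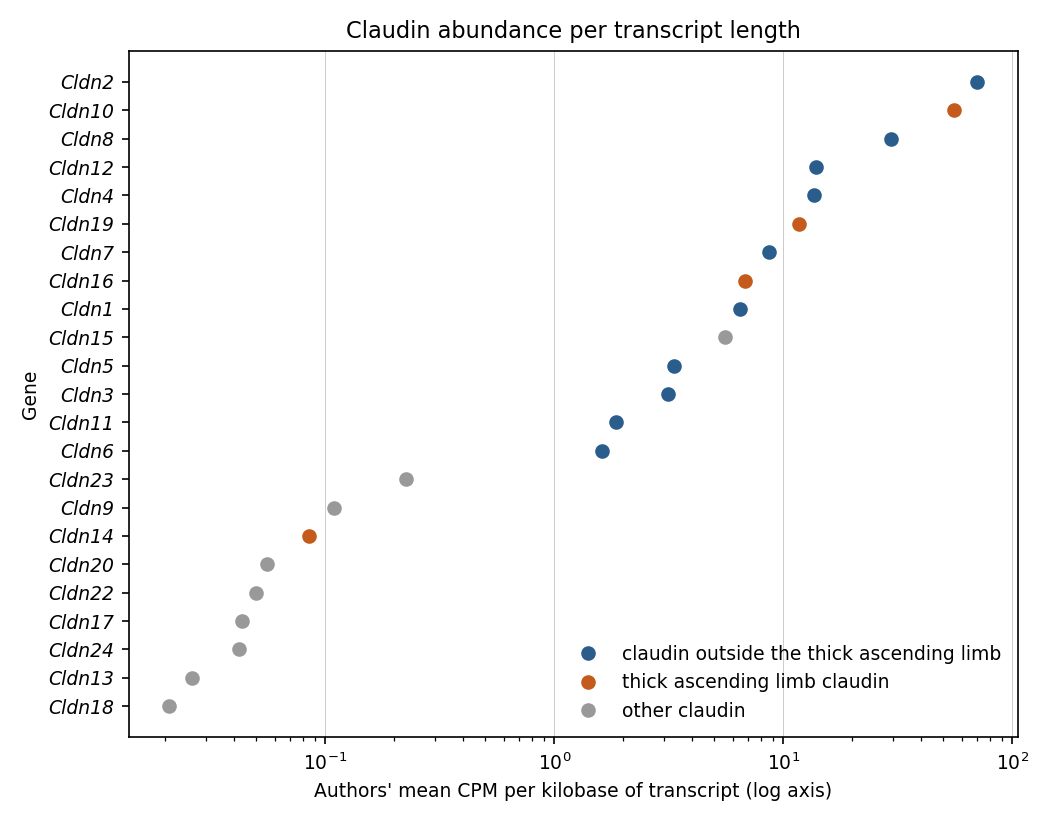
The authors' mean CPM per kilobase of transcript (horizontal log axis) for the 23 claudins in the table (vertical axis), coloured by the set they belong to. *Cldn2* at 70.4 and *Cldn10* at 55.7 lead, and the 10 claudins described here all lie to the right of *Cldn23* at 0.224.

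The partners of claudins at the junction were all present. Of 12 genes, which include *Ocln* (occludin), the scaffold proteins *Tjp1* to *Tjp3* and the junctional adhesion molecules, 12 were above 1 CPM. Their median was 4.78 CPM per kilobase, with *Jam2* lowest at 2.52 and *Cgnl1* (paracingulin, which ties the junction to the cytoskeleton) highest at 35.8. *Cldn2* stood above all 12 on this scale and *Cldn6* and *Cldn11* below all 12.

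Marker genes of 8 cell types of the kidney were looked up, and each of the 34 markers was above 1 CPM, as were 55.9% of all gene symbols. No markers of other organs were looked up, so these values do not test the kidney label. The 6 markers of the proximal tubule, the place of *Cldn2*, had a median of 42.1 CPM per kilobase. They ranged from 11.4 for *Cubn* to 259 for the phosphate transporter *Slc34a1*. The 5 markers of principal cells, the main cells of the collecting duct, had a median of 42.9, from 5.06 for *Avpr2* to 58.4 for *Hsd11b2*. The 4 of intercalated cells had a median of 9.16, from 5.08 for *Slc4a1* to 41.3 for *Atp6v1b1*. Principal and intercalated cells are cells of the collecting duct, under which *Cldn3*, *Cldn4*, *Cldn7* and *Cldn8* are grouped above. The 5 markers of endothelium, the cells of *Cldn5*, had a median of 11.1 CPM per kilobase, from 4.56 for *Kdr* to 23.3 for *Emcn*. All 5 were above the 3.33 of *Cldn5*. The 4 markers listed for parietal epithelium, which *Cldn1* stands for, had a median of 5.09, from 1.82 for *Ncam1* to 16.9 for *Scin*. Whether each marker is limited to its cell type in these kidneys was not measured.

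Cells outside the 4 places that the set stands for also gave RNA. The median was 130 CPM per kilobase for the 3 markers of the thick ascending limb, from 67.0 for *Kcnj1* to 389 for *Umod*. It was 39.3 for the 3 of the distal convoluted tubule, from 3.30 for *Pvalb* to 40.2 for *Calb1*. For the 4 of podocytes it was 6.73, from 2.26 for *Wt1* to 24.3 for *Podxl*. Which cells the claudin RNA came from was not measured. The authors' mean was 31.8 CPM for *Pkd1* and 4.21 CPM for *Mir17hg*, the host transcript of the miR-17-92 cluster. These are means over both genotypes and check no label.

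Matches to the seeds of the cluster were found in the 3′-UTRs of *Cldn1*, *Cldn5* and *Cldn11*. The sites are shown because they are the places where the microRNAs printed above could pair with a claudin of the set. They come from the GENCODE M21 transcripts of GRCm38, read in the direction of the gene, and the capitals mark the letters that match a seed.
*Cldn1*, chr16:26358262-26358291, minus strand: ctggacggtcTTTGCACTTTggtctggagc
*Cldn5*, chr16:18777833-18777861, plus strand: acagactacagGCACTTTtaagaacttga
*Cldn11*, chr3:31164285-31164313, plus strand: aggtaaaatctGTGCAATaaaataacaaa

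The 10 capitals of *Cldn1* hold a match to the miR-19 seed and a match to the miR-17 seed, which overlap in the letters GCAC. They lie at bases 757 to 766 of a 3′-UTR of 2396 bases, counted from the base after the stop codon. The match in *Cldn5* is to the miR-17 seed, at bases 192 to 198 of 610. The match in *Cldn11* is to the miR-92 seed, at bases 988 to 994 of 1016. The *Cldn11* match is the only one of the 4 that is followed by an A, a base that often goes with stronger repression. It lies 22 bases before the annotated end of the transcript.

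The 3 claudins with a match differ in level and in the cells they are known from. *Cldn1* had 6.44 CPM per kilobase, *Cldn5* 3.33 and *Cldn11* 1.86. *Cldn1* stood below *Cldn7* per kilobase of transcript but above it in CPM and per kilobase of coding length. The claudins that were highest on all of these scales, *Cldn2*, *Cldn8*, *Cldn12* and *Cldn4*, held none of the 4 sets of letters in these 3′-UTRs, which says nothing of other windows or other kinds of pairing. *Cldn12* had none in the longest 3′-UTR of the set.

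Such matches are common. Of 18702 3′-UTRs of the annotation, 11.5% held the letters of the miR-17 site, 7.64% those of miR-18, 10.6% those of miR-19 and 6.31% those of miR-92. Of the 10 claudins, 2 held the miR-17 letters, 0 the miR-18 letters, 1 the miR-19 letters and 1 the miR-92 letters. At least 1 of the 4 was in 27.6% of all 3′-UTRs and in 3 of the 10 claudins (30%). The median 3′-UTR had 1005 bases in the claudins and 857 bases over all genes. A share of 30% in 10 genes is near that of all 3′-UTRs.

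A longer 3′-UTR holds a match more often. Among genes whose 3′-UTR was within 25% of the length of that of *Cldn1*, 48.5% held at least 1 of the 4 sets of letters, and for *Cldn12* this was 49.8%. The share was 15.8% at the length of *Cldn5*, 26.3% at that of *Cldn11* and 3.74% at that of *Cldn7*. A match is a set of letters and not a measured site, and no pairing of a microRNA with a claudin was measured here.

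**Figure D4:**
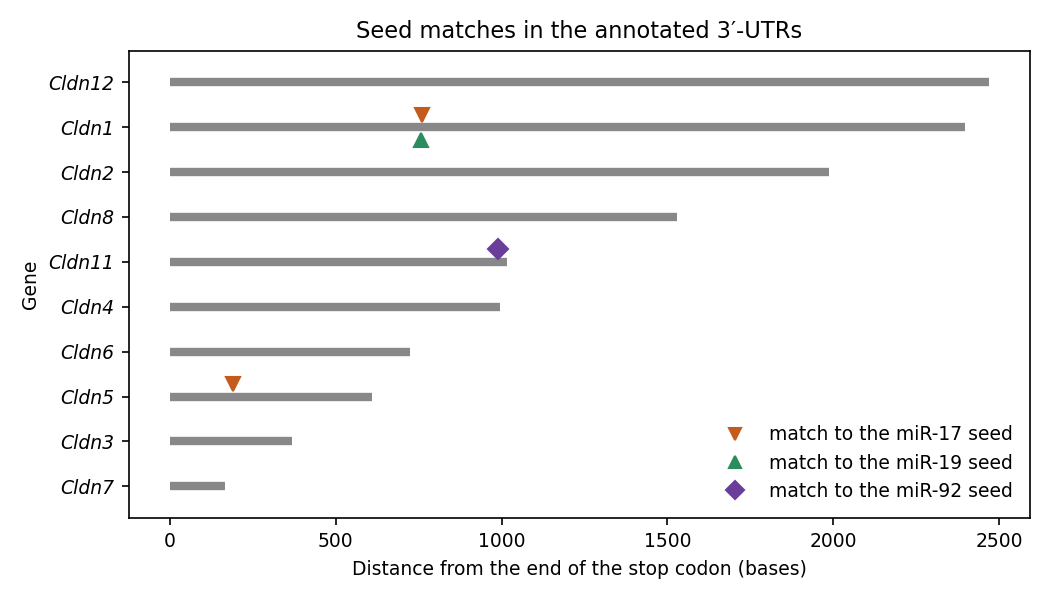
The annotated 3′-UTR of each of the 10 claudins as a bar from the end of the stop codon (horizontal axis, bases), ordered by length, with a symbol at each match to a 7-letter seed of the miR-17-92 cluster. The matches of *Cldn1* overlap near base 760, that of *Cldn5* is at base 192, that of *Cldn11* is close to the end, and the other 7 bars have none.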

How the data were processed

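RNA of 6 kidneys (3 *Pkd1* F/RC SKO, 3 *Pkd1* F/RC DKO) was made into stranded total RNA libraries, sequenced from 1 end over 51 bp. Mapping by the authors used TopHat2 2.0.12 and mm10, and alignments of mapping quality below 10 were dropped. The submitters' processing notes of the authors also name bcl2fastq 1.8.4, Cufflinks, featureCounts, Subread 1.4.6 and edgeR 3.2.4. The deposited log2 values are the logCPM of the authors' edgeR result, an average of each transcript over all libraries. They are called the authors' mean log2 CPM here. Of 54721 transcripts, 4617 share the lowest value of 0.0263 CPM, which is taken as a floor and not as a measured level.

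The table's other columns are the authors' own comparison of DKO with SKO (log2 fold change, likelihood ratio statistic, p-value and false discovery rate). They are not used here. Without values for single libraries no test could be fitted.

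A gene was represented by its entry with the highest mean. Lengths came from GENCODE M21 (GRCm38), for 18575 symbols by RefSeq identifier and for 4222 by symbol, as the longest coding transcript. Seed matches, the 7 letters complementary to bases 2 to 8, were sought on the transcript strand in 3′-UTRs of at least 30 bases. All 10 claudins with every entry were named, and of the other lists the highest and lowest genes. The claudins and the lists were chosen with earlier results of these data known. Python 3.11.15, numpy 2.4.6 and pandas 2.3.3 were used. The search for letters, the conversion of positions and the percentiles were tested on made-up inputs, and the other steps were not.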

Additional observations from a re-analysis of the deposited data

How the results depend on the processing

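All 10 claudins were above 1 CPM also by the median of each gene's entries, by RefSeq entries alone and with minimums of 0.5 or 2 CPM, and all 10 were listed with no minimum. *Cldn2* was first and *Cldn6* last of the 10 under each of 5 other ways of setting the level. The share of *Cldn2*, 46.2% per kilobase, was 53.0% without division by length, 52.4% per kilobase of coding length, 46.1% with the median of a gene's entries and 46.5% with the longest annotated transcript. It was 35.1% with the sum of the RefSeq entries, which counts the overlapping entries of *Cldn12* 4 times and put that gene second in place of *Cldn8*. The median percentile, 75.7 in CPM over all symbols, was 56.5 among symbols with at least 1 CPM and 82.9 per kilobase. The miR-17 letters, in 2 claudins, were in 0 when an A had to follow. When only bases 2 to 7 had to match, they were in 5, among them *Cldn2* and *Cldn8*, and in 34.9% of all 3′-UTRs. With all annotated transcripts the number was 2. Leaving out each kidney in turn and an analysis by replicate were not run, since the values are means over all kidneys. No paired analysis was possible because the table has no columns for single kidneys. Depth is unknown, so no limit of detection was set.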
